A study of Mus musculus with 12 samples.

Results

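The J-proteins (gene symbols Dnaja, Dnajb and Dnajc) and the heat shock proteins (Hspa, Hspb, Hspd1, Hspe1, Hsph1 and Hsp90a) were examined in mouse liver, across all 12 libraries of the series. Members were taken by gene symbol, leaving out Hspa5 and pseudogenes, which gave 69 of the 38087 gene rows (43 J-protein rows and 26 Hsp rows) and 68 symbols, since Hspa14 stands on 2 rows. Of these, 68 rows had at least 1 count and 59 passed the filter on low counts, among 14170 genes that did. All animals were germ-free C57BL/6J males of 13 to 16 weeks, so neither group carried a gut microbiota. The 6 ghrelin libraries came from animals given rat ghrelin, 10 µg per mouse under the skin at ZT2 (2 h after lights on) daily for 5 days, and the 6 PBS libraries from animals given the saline vehicle on the same schedule. Liver was taken at ZT02, and ribosomal RNA was removed from total RNA before sequencing. Each library was counted as 1 animal. The labels do not say that the libraries came from separate animals, so the p-values measure the spread between these libraries, which may be partly technical.

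Hsp70 proteins bind and release unfolded protein stretches in a cycle driven by ATP. J-proteins carry the J domain, which makes Hsp70 hydrolyse ATP, and they choose its substrate or its place in the cell, while Hsp110 proteins exchange the spent nucleotide and Hsp90 takes over partly folded clients such as nuclear receptors and kinases. Under heat or other protein damage the transcription factor HSF1 binds inverted repeats of GAA, the heat shock element, and raises many of these genes together. In liver, where secreted proteins are made in bulk, a separate set of J-proteins works with the Hsp70 of the endoplasmic reticulum (ER).

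Dnajb4, a class B J-protein of the cytosol that works with Hsp70, was the one member called different between the groups. The test was edgeR's quasi-likelihood F test with Benjamini-Hochberg adjustment over all 14170 genes, with a call at adjusted p under 0.05. RefSeq gives Dnajb4 2 start sites on the minus strand of chromosome 3, and both promoter windows of 300 bases are shown because it is the member called. They lie at chr3:152193796-152194095 and chr3:152210034-152210333 (RefSeq sequence, GRCm38.p6). Every window of the promoter table was searched for the heat shock element of 3 units (GAA, NN, TTC, NN, GAA in a row, or its reverse complement TTC, NN, GAA, NN, TTC, where N is any base). It was also searched for the form of 2 units (TTC, NN, GAA, or GAA, NN, TTC), each of which is its own reverse complement and lies within the 3-unit form. Neither Dnajb4 window held the 3-unit letters. The window of the inner start held the 2-unit letters once, at position -14 from the start, here in capitals, and the window of the outer start held none. The 2-unit search was added after the windows had been seen.
Dnajb4, inner start: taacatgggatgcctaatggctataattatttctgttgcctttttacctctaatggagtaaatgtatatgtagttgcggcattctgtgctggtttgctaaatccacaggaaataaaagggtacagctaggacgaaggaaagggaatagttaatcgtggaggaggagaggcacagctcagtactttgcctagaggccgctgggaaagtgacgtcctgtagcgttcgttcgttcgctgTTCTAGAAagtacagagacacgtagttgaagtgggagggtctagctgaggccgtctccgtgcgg
Dnajb4, outer start: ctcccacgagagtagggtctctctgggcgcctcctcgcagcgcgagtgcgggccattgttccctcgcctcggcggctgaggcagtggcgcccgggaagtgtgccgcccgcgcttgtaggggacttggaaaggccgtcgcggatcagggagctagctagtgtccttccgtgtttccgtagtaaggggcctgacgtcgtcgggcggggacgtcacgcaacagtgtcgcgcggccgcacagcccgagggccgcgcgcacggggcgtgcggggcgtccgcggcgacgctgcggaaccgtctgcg

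A promoter window was given for 55 of the 68 symbols. At least 1 window of 4 of these 55 members (7.27%), Dnajb6, Hspd1, Hspe1 and Hsph1, held the 3-unit letters, against 179 of 27025 genes (0.662%) in the table. The 2-unit letters stood in 15 of 55 members (27.3%) and in 4587 of 27025 genes (16.97%). Among the members listed as textbook HSF1 targets, 3 of the 10 with a window (30%) held the 3-unit letters and 8 (80%) the 2-unit letters. Of the 45 members outside that list, 1 (2.22%) held the 3-unit letters and 7 (15.6%) the 2-unit letters. The stretches in Hspd1, Hspe1 and Hsph1 are shown because these are the 3 of those 10 listed targets that carry the 3-unit letters. None of the 3 passed the test, and nor did Dnajb6, which is outside that list. The other listed targets with a window lacked the 3-unit letters, as Dnajb4 did, and of those only Dnajb4 was called. Hspd1 and Hspe1 are read in opposite directions from one shared promoter, so their lines are the same 58 bases, chr1:55088039-55088096, on the minus and the plus strand. The shares above count the matches in these bases for both genes. The Hsph1 stretch is chr5:149636268-149636320 on the minus strand. Capitals mark the matches, of which 2 overlap in Hspd1 and Hspe1.
Hspd1: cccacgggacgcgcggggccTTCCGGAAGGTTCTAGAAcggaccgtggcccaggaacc
Hspe1: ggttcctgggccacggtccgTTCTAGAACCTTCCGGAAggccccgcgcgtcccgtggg
Hsph1: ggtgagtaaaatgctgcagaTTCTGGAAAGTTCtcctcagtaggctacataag
A match is a description of the letters and not a measured binding site. The search took exact letters within these windows only, so the lack of a match does not show that a gene has no heat shock element.

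The libraries held 15775059 to 22302533 counts each, and the 69 members took 0.418% to 0.545% of them. Values are CPM, counts set to a common library size with TMM scaling factors, and fold changes are ghrelin over PBS on the log2 scale, with the fit's standard error (SE). The libraries were checked against marker genes of hepatocytes and 10 other cell types, and the ranges of summed marker level overlapped between the groups for all 11 lists. Hepatocyte markers summed to 77615 to 109735 CPM in PBS and 73768 to 90126 CPM in ghrelin livers, and 1 of these 6 markers was free of overlap between the groups. The 4 neutrophil markers summed to 3.40 to 8.19 CPM in PBS and 0.792 to 4.02 CPM in ghrelin livers, and 5 of the 6 ghrelin sums lay below every PBS sum. The 2 neutrophil markers that passed the filter had log2 fold changes of -1.44 and -0.99, neither called (smallest edgeR adjusted p = 0.145). Muscle markers, of interest because several small heat shock proteins are abundant in muscle, summed to 5.70 to 12.3 CPM in PBS and 5.29 to 9.70 CPM in ghrelin livers. Markers at 0 in all libraries were found only in the pancreatic acinar list (Prss2 and Pnlip). Whether a difference in cell makeup had a part in any result was not tested, and in whole liver fewer cells of a type and less RNA per cell cannot be told apart.

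Over the 59 measured members 1 was lower with ghrelin and 0 were higher at adjusted p under 0.05. In all 14170 genes 0.0635% were called lower and 0.0423% higher, 0.106% in all. At an unadjusted p under 0.05 the fit listed 6 members (10.2%), 2 higher and 4 lower, against 13.4% of all genes (6.44% higher and 6.94% lower). The 2 higher were Dnajb11 and Dnajc28, and the 4 lower were Dnajb4, Dnajb9, Dnajb1 and Hspa12a. The ghrelin and PBS values were free of overlap in 1 member, Dnajb4, which lay below PBS, a share of 1.69%, and in 0.826% of all genes. Ghrelin lay wholly below PBS in 0.459% of all genes. Members had 23 positive and 36 negative log2 fold changes with a median of -0.01, and all genes had 7087 and 7083 with a median of 0.00. DESeq2 and limma voom likewise called Dnajb4 lower and no member higher. For 42 of the 59 members the 95% confidence interval of the log2 fold change lay within 0.5 on either side of 0. For the other 17 a change of that size was not excluded.

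**Figure D1:**
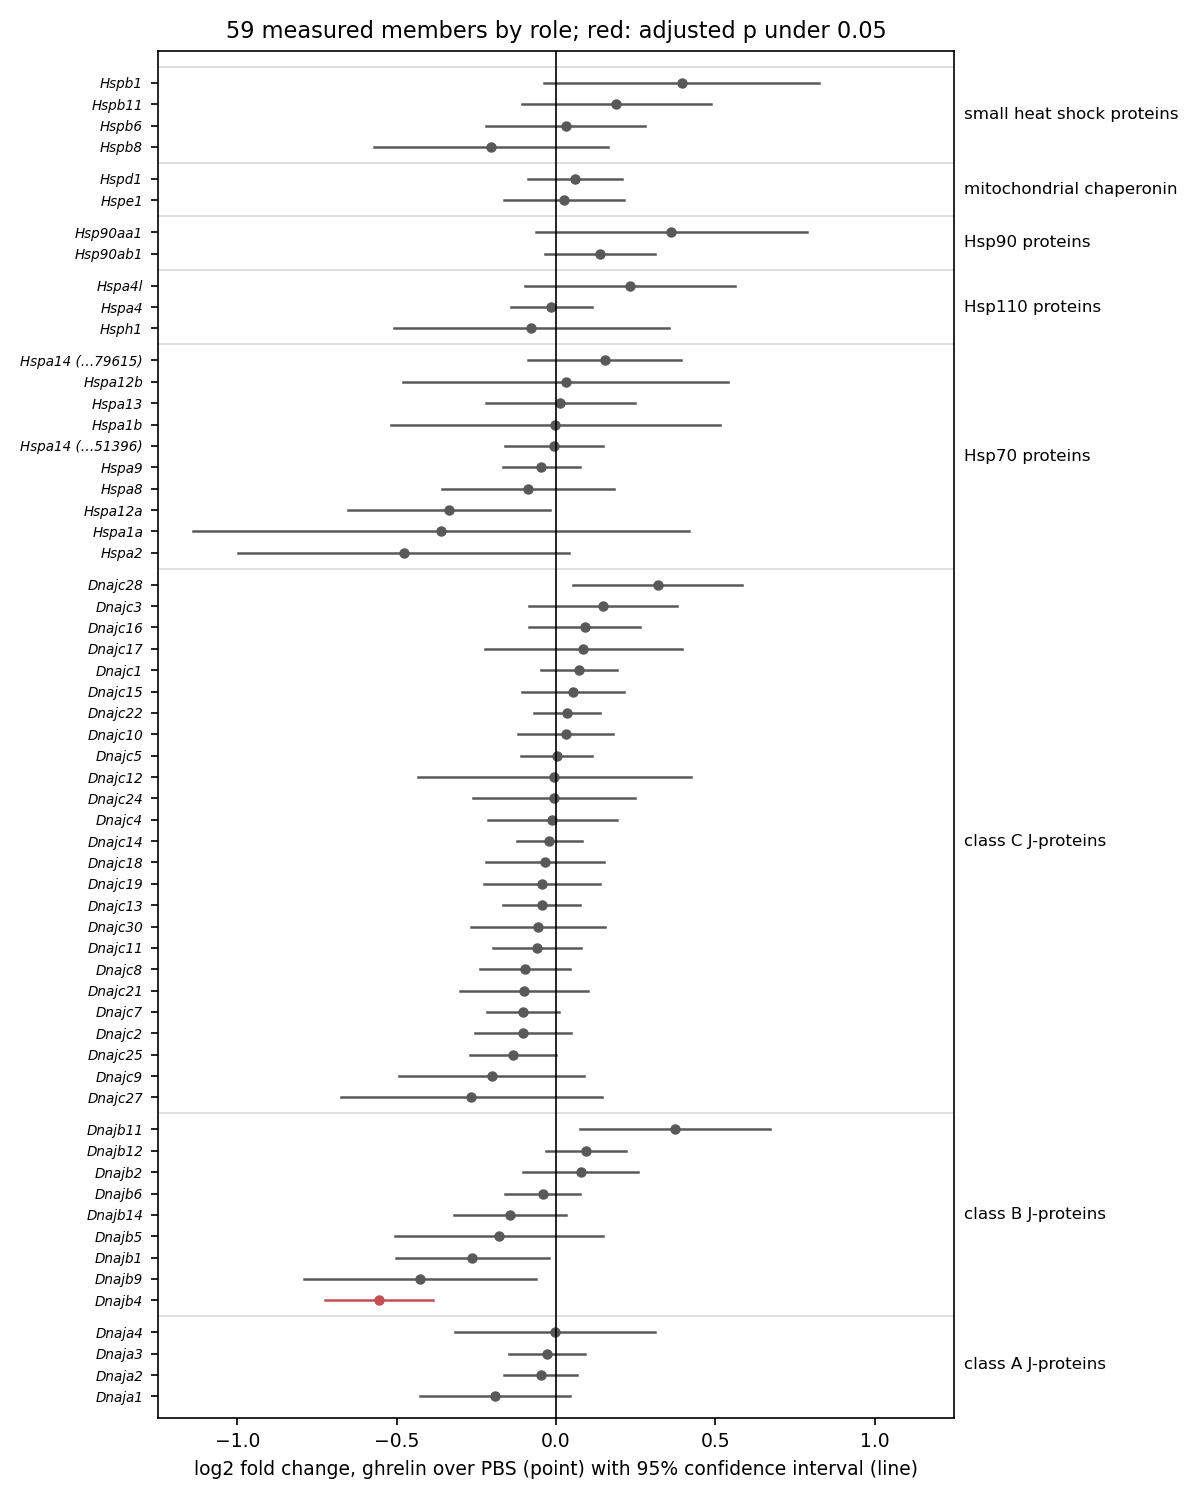
Log2 fold change of each measured member, ghrelin over PBS, with its 95% confidence interval as a bar, grouped by protein class. Dnajb4 at -0.56 is the one member called, and 6 intervals leave out 0.

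In the 6 PBS livers Dnajb4 stood at 46.3, 39.7, 35.8, 36.9, 45.6 and 41.7 CPM. In the 6 ghrelin livers it stood at 28.9, 24.4, 29.9, 30.1, 25.3 and 28.6 CPM. Every ghrelin value lay below every PBS value, with 30.1 CPM the highest of one group and 35.8 CPM the lowest of the other. The means were 41.0 ± 4.38 and 27.9 ± 2.44 CPM (SD, n = 6 each), a log2 fold change of -0.56 (SE 0.08, 95% confidence interval -0.72 to -0.39, edgeR adjusted p = 0.0206). The size of the difference held over 24 alternative settings, with log2 fold changes of -0.59 to -0.48 and adjusted p of 7.64e-07 to 0.0760. The call was lost in 4 of them. Without ghrelin replicate 1 the edgeR adjusted p was 0.0545, and without ghrelin replicate 3 it was 0.0566. With trends of GC content and length removed it was 0.0561, and with the replicate block in addition 0.0760.

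Dnajb4 (ENSMUSG00000028035) spans 152178511 to 152210302 on the minus strand of chromosome 3 in GRCm38 (GENCODE M21), and its exons overlap those of no other gene. The nearest other gene start is that of Fubp1, a single-strand DNA binding protein gene read the other way, 120 bases from the Dnajb4 start in that annotation. Fubp1 was chosen as a neighbour after its values were seen. It ranged over 35.9 to 50.003 CPM in PBS and 31.9 to 50.2 CPM in ghrelin livers (log2 fold change -0.06, SE 0.11, edgeR adjusted p = 0.847).

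**Figure D2:**
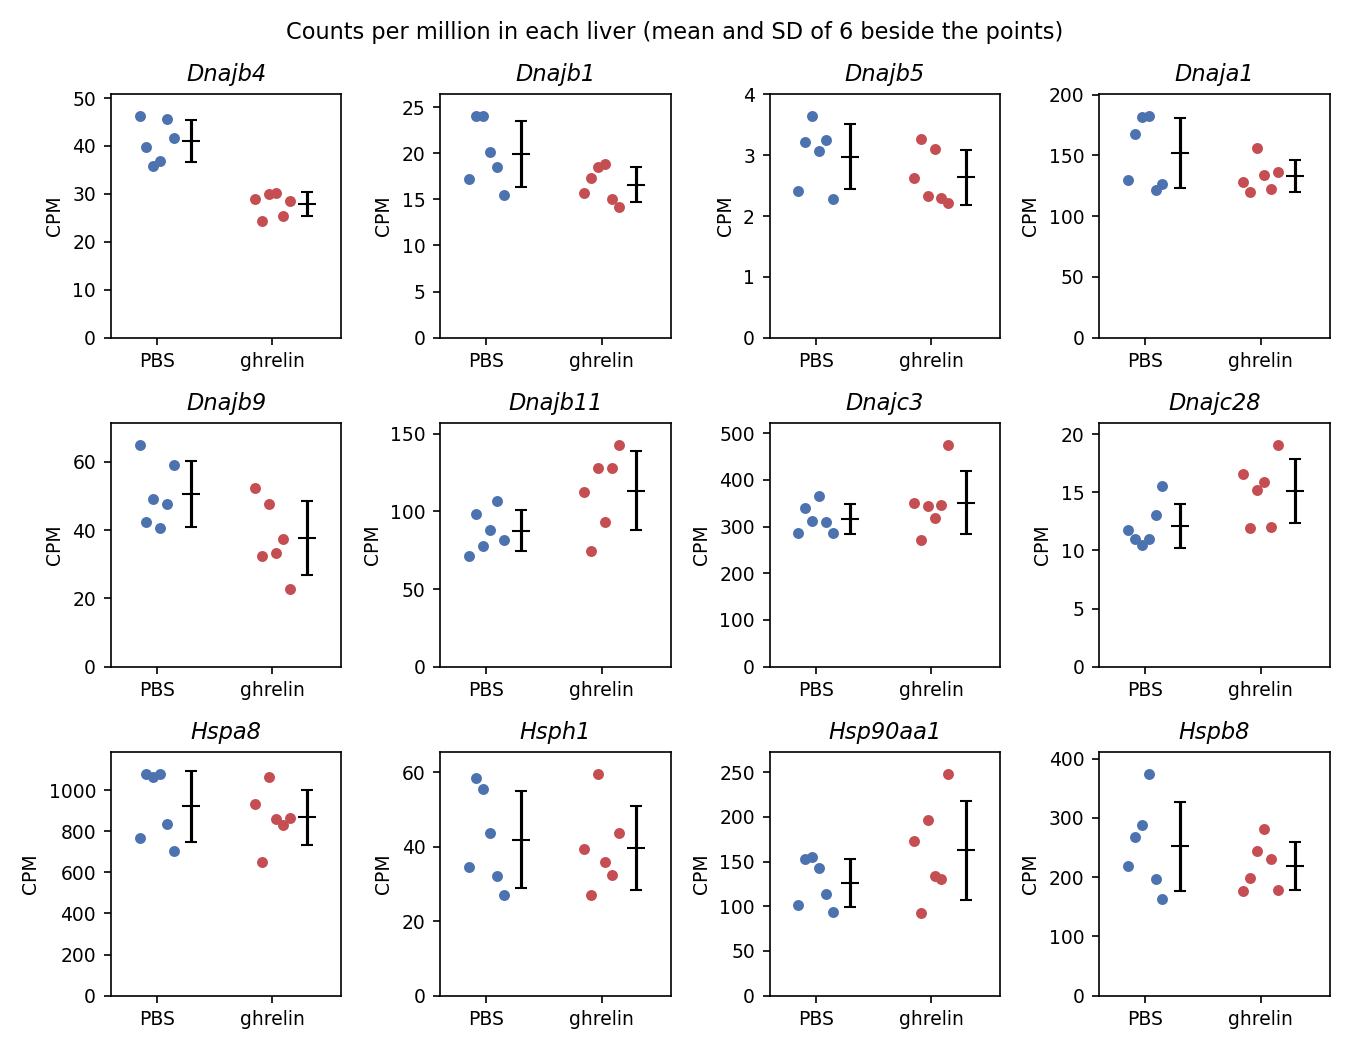
CPM of selected members in each of the 12 livers, as points, with the group mean and SD (n = 6) beside them. The Dnajb4 groups do not overlap, and the groups of the other members shown do.

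Class B J-proteins bind unfolded clients and hand them to Hsp70, and 9 of the 13 were measured, 3 with a positive and 6 with a negative fold change (median -0.14). Dnajb1, the main heat-inducible J-protein of the cytosol, ranged over 15.5, 19.3 and 24.1 CPM (lowest, median and highest) in PBS and 14.2, 16.5 and 18.8 CPM in ghrelin livers. The groups overlapped, and Dnajb1 did not pass the adjusted threshold (log2 fold change -0.26, SE 0.11, edgeR adjusted p = 0.334). Dnajb5, the closest relative of Dnajb1 and Dnajb4, was low at 2.28, 3.14 and 3.65 CPM in PBS and 2.21, 2.47 and 3.27 CPM in ghrelin livers (log2 fold change -0.18, SE 0.15, edgeR adjusted p = 0.650). Dnajb4 was thus the one of these 3 relatives to pass the test, and whether its fold change differs from those of Dnajb1 and Dnajb5 was not tested. Dnajb6 and Dnajb2, which keep aggregation-prone proteins soluble, had log2 fold changes of -0.04 (SE 0.06) and 0.08 (SE 0.08). Their PBS medians were 28.5 and 14.5 CPM.

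Class A J-proteins resemble bacterial DnaJ, and all 4 were measured, each with a negative fold change (median -0.04) and none called. Dnaja1, the stress-inducible one, stood at 122, 149 and 183 CPM in PBS and 120, 131 and 156 CPM in ghrelin livers. The ranges overlapped over most of their length (log2 fold change -0.19, SE 0.11, edgeR adjusted p = 0.474). Dnaja2, its constitutive counterpart, stood at 92.7, 96.5 and 103 CPM in PBS and 87.7, 92.6 and 104 CPM in ghrelin livers (log2 fold change -0.05, SE 0.05). Dnaja3, the J-protein of the mitochondrial matrix, and Dnaja4 had log2 fold changes of -0.03 (SE 0.06) and -0.00 (SE 0.15). The Dnaja4 exons share 44.1% of their length with Wdr61, so counts of these 2 genes may not be cleanly divided.

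The ER list used here holds 8 members and need not be complete. It has J-proteins of the lumen that work with the ER Hsp70, Hspa5, J-proteins of the ER membrane and the Hsp70 relative Hspa13. All 8 were measured, 6 with a positive and 2 with a negative fold change (median 0.05). None passed the adjusted threshold. Dnajb11, a folding co-chaperone of Hspa5, stood at 71.6, 85.0 and 107 CPM in PBS and 74.6, 120 and 143 CPM in ghrelin livers. The ghrelin values were spread more widely and overlapped the PBS range (log2 fold change 0.37, SE 0.14, edgeR adjusted p = 0.279). Dnajb9, which restrains the ER stress sensor Ire1, lay on the other side of 0, at 40.5, 48.5 and 65.1 CPM in PBS and 22.7, 35.4 and 52.3 CPM in ghrelin livers. Its groups overlapped too (log2 fold change -0.43, SE 0.17, edgeR adjusted p = 0.30). Dnajc3, an inhibitor of the kinase PERK and a co-chaperone of Hspa5, stood at 286, 312 and 367 CPM in PBS and 272, 346 and 476 CPM in ghrelin livers (log2 fold change 0.15, SE 0.11, edgeR adjusted p = 0.589). Hspa5 itself had a log2 fold change of 0.26 (SE 0.17, edgeR adjusted p = 0.544). Dnajb14, an ER membrane J-protein, stood at 24.2, 26.6 and 31.6 CPM in PBS and 21.5, 24.5 and 28.8 CPM in ghrelin livers (log2 fold change -0.14, SE 0.08, edgeR adjusted p = 0.472). Dnajb12, Dnajc1, Dnajc10 and Hspa13, the rest of the 8 listed, had log2 fold changes from 0.01 to 0.09.

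Class C holds J-proteins that share only the J domain and serve special tasks. Of 26 rows 25 were measured, 9 with a positive and 16 with a negative fold change (median -0.02), none called. Dnajc28, a mitochondrial J-protein, stood at 10.5, 11.4 and 15.5 CPM in PBS and 11.9, 15.5 and 19.1 CPM in ghrelin livers. The median was higher with ghrelin and the ranges overlapped (log2 fold change 0.32, SE 0.12, edgeR adjusted p = 0.294). Dnajc25 stood at 24.6, 27.1 and 30.1 CPM in PBS and 22.2, 25.1 and 26.7 CPM in ghrelin livers (log2 fold change -0.14, SE 0.06, edgeR adjusted p = 0.374). Its exons share 7.66% of their length with Gm20503 on the same strand, so counts of these genes may not be cleanly divided. Dnajc7, which binds both Hsp70 and Hsp90, had narrow ranges of 32.4, 34.8 and 36.0 CPM in PBS and 30.3, 32.4 and 34.2 CPM in ghrelin livers (log2 fold change -0.10, SE 0.05, edgeR adjusted p = 0.414). Its interval lay well within 0.5 of 0, as did that of Dnajc22 at 79.0, 85.5 and 91.1 CPM in PBS and 85.6, 87.0 and 91.6 CPM in ghrelin livers (log2 fold change 0.03, SE 0.05, edgeR adjusted p = 0.809). Dnajc5, which guards proteins of secretory vesicles, and Dnajc13, which acts in endosomes, had log2 fold changes of 0.00 (SE 0.05) and -0.05 (SE 0.06). Dnajc12, a co-chaperone of the aromatic amino acid hydroxylases including liver phenylalanine hydroxylase, stood at 5.87, 7.37 and 14.7 CPM in PBS and 6.68, 8.03 and 11.2 CPM in ghrelin livers. One PBS liver, replicate 4, stood far above the other 5 (log2 fold change -0.01, SE 0.20, edgeR adjusted p = 0.996). Without that liver the log2 fold change was 0.23, and Dnajc12 was still not called.

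The Hsp70 class had 10 of 11 rows measured, 3 with a positive and 7 with a negative fold change (median -0.03), and none was called. Hspa8, the constitutive Hsp70 of the cytosol, held more counts than any other member, at 705, 951 and 1080 CPM in PBS and 653, 863 and 1064 CPM in ghrelin livers. The ranges covered each other almost wholly (log2 fold change -0.09, SE 0.13, edgeR adjusted p = 0.809). Its exon bases overlap those of small nucleolar RNAs. The inducible genes Hspa1a and Hspa1b, which are nearly identical so that the split of reads between them is uncertain, were low. Hspa1b stood at 4.97, 7.69 and 12.3 CPM in PBS and 4.65, 8.14 and 12.3 CPM in ghrelin livers (log2 fold change -0.00, SE 0.24, edgeR adjusted p = 0.998). Hspa1a stood at 0.411, 0.614 and 1.62 CPM in PBS and 0.432, 0.668 and 1.07 CPM in ghrelin livers, on 186 counts in all. Its interval was wide, from -1.14 to 0.42, and counting error and spread between livers were not separated (log2 fold change -0.36, SE 0.36, edgeR adjusted p = 0.707).

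Hspa9, the Hsp70 of mitochondria, stood at 586, 597 and 632 CPM in PBS and 542, 584 and 628 CPM in ghrelin livers (log2 fold change -0.05, SE 0.06, edgeR adjusted p = 0.765). Hspa2, best known from testis, was low at 2.33, 3.79 and 4.55 CPM in PBS and 1.68, 2.28 and 3.77 CPM in ghrelin livers. Its interval ran from -1.0 to 0.04 (log2 fold change -0.48, SE 0.24, edgeR adjusted p = 0.412). Hspa12a, a distant relative, stood at 2.19, 2.71 and 3.65 CPM in PBS and 1.91, 2.12 and 2.64 CPM in ghrelin livers (log2 fold change -0.34, SE 0.15, edgeR adjusted p = 0.344). Both genes had overlapping groups. Hspa14, a ribosome-associated Hsp70, stands on 2 rows, of which ENSMUSG00000051396 is named Gm45902 in GENCODE M21. Their log2 fold changes were -0.01 (SE 0.07) and, for ENSMUSG00000079615, 0.15 (SE 0.11).

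The 3 Hsp110 proteins, which release nucleotide from Hsp70, had log2 fold changes with a median of -0.01. Hsph1, the heat-inducible Hsp110, stood at 26.9, 39.2 and 58.4 CPM in PBS and 27.1, 37.6 and 59.6 CPM in ghrelin livers. The groups shared almost the same range (log2 fold change -0.08, SE 0.20, edgeR adjusted p = 0.909). For Hspa4 the log2 fold change was -0.01 (SE 0.06) and for Hspa4l 0.23 (SE 0.15). Of the 2 cytosolic Hsp90 genes, the inducible Hsp90aa1 stood at 93.7, 128 and 155 CPM in PBS and 92.0, 154 and 248 CPM in ghrelin livers. The lowest values were alike and the highest ghrelin value exceeded all PBS values (log2 fold change 0.36, SE 0.20, edgeR adjusted p = 0.454, interval -0.06 to 0.79). The constitutive Hsp90ab1 stood at 515, 566 and 595 CPM in PBS and 532, 599 and 740 CPM in ghrelin livers (log2 fold change 0.14, SE 0.08, edgeR adjusted p = 0.486). Neither Hsp90 gene passed the test.

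Hspd1 and Hspe1 encode the mitochondrial chaperonin Hsp60 and its lid Hsp10, and share the promoter printed above. Hspd1 stood at 309, 352 and 360 CPM in PBS and 309, 364 and 401 CPM in ghrelin livers (log2 fold change 0.06, SE 0.07, edgeR adjusted p = 0.749). Hspe1 stood at 67.0, 72.3 and 78.4 CPM in PBS and 60.2, 75.8 and 88.4 CPM in ghrelin livers (log2 fold change 0.02, SE 0.09, edgeR adjusted p = 0.936). Neither gene passed the test, and their annotated exons share 112 bases. Over the 9 members listed as mitochondrial 4 fold changes were positive and 5 negative (median -0.03).

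Small heat shock proteins hold unfolded proteins without ATP. The class was taken here by the symbol Hspb, and whether each row, Hspb11 included, encodes such a protein was not examined. Of its 8 rows 4 were measured, 3 with a positive and 1 with a negative fold change (median 0.11), none called. Hspb8, which works with Bag3 in selective autophagy, stood at 164, 244 and 375 CPM in PBS and 177, 215 and 282 CPM in ghrelin livers (log2 fold change -0.20, SE 0.17, edgeR adjusted p = 0.644). Hspb1 (Hsp25) was low at 2.92, 4.48 and 5.08 CPM in PBS and 3.39, 5.68 and 8.01 CPM in ghrelin livers (log2 fold change 0.39, SE 0.20, edgeR adjusted p = 0.417). Both genes had overlapping groups, and Hspb6 and Hspb11 had log2 fold changes of 0.03 (SE 0.12) and 0.19 (SE 0.14).

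The 10 members under the filter had at most 10 counts in any library. Hspa1l had 44 counts in all libraries together, Dnajc6 38, Dnajb3 28, Dnajb13 21, Hspb2 15, Hspb9 15, Hspb7 11, Dnajb7 8, Dnajb8 3 and Hspb3 0. A count of 0 allows up to 3 counts, or 0.0127 CPM over the 12 libraries, and covers counting error only. Several of these genes are known from testis, muscle or brain. Hspa1l shares 71.9% of its exon length with Gm10501 and Hspb2 30.2% with Cryab.

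Levels of different genes were compared per kilobase of exon (CPM per kb, mean of 12 livers with the lowest and the highest), using all GENCODE M21 exons of a gene. Hspa8 led at 208 (152 to 251), followed by Hsp90ab1 at 196 (172 to 247), and these neighbours overlapped. Hspa9 at 138 (126 to 147), Hspd1 at 134 (117 to 152) and Hspb8 at 121 (84.0 to 192) overlapped one another. Dnajc3 was the highest J-protein at 65.0 (52.9 to 92.5), and its range overlapped those of Hspe1 at 49.7 (40.8 to 60.0) and Hsp90aa1 at 36.7 (23.4 to 63.2). Dnajc22, a membrane J-protein, came next to Hspe1 at 47.0 (42.7 to 49.5), and Dnaja2 stood at 32.0 (29.5 to 34.9). Per kilobase Dnajb4 stood at a mean of 3.93, Dnajb1 at 5.69, Hsph1 at 5.61, Hspa1b at 2.91 and Hspa1a at 0.260. Exon lengths here include every annotated transcript and can exceed those that liver uses.

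**Figure D3:**
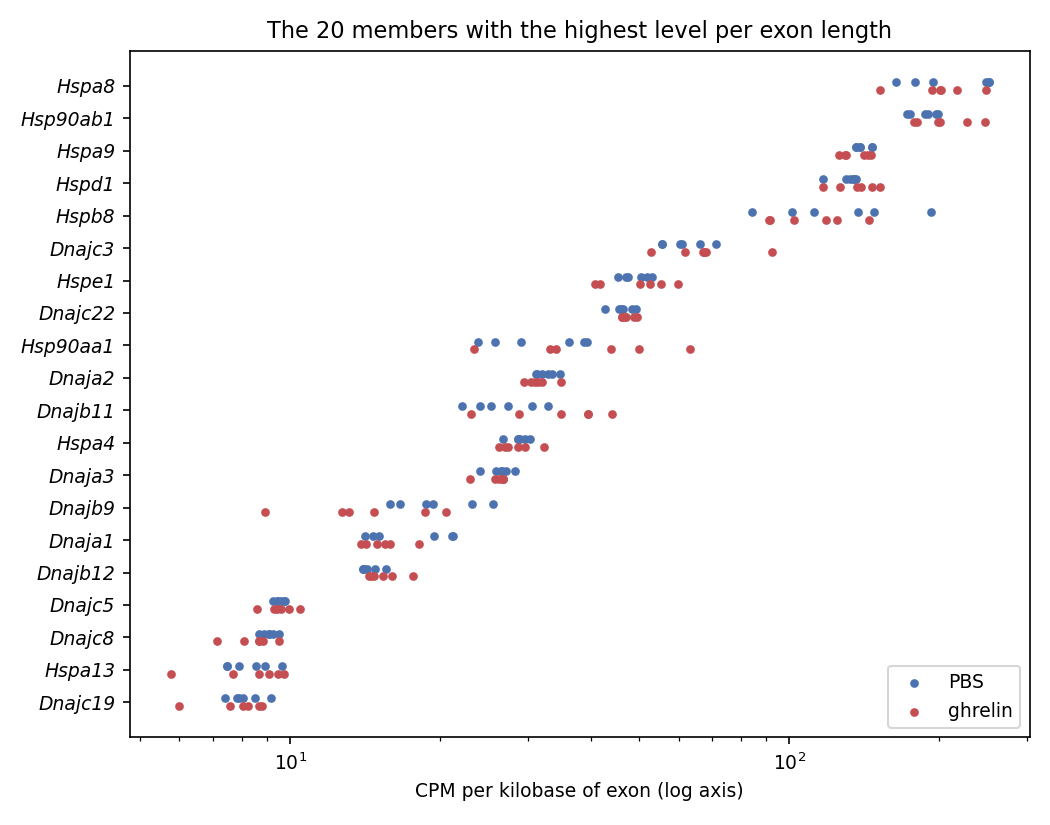
Level per kilobase of exon (CPM per kb, log axis) of the 20 members with the highest means, as 1 point per liver, PBS and ghrelin in separate colours. Hspa8 at a mean of 208 and Hsp90ab1 at 196 lead, and the groups of every gene shown overlap.

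The spread among livers of one group was described by the coefficient of variation (SD over mean of CPM). Its median over the measured members was 11.2% in PBS and 10.8% in ghrelin livers, against 12.6% and 13.0% over all genes. For the 13 stress-inducible members it was 18.7% and 15.5%, with Hspa1a in PBS at 61.4%. PBS replicate 3 lay above the mean of all livers for 13 of these 13 members and ghrelin replicate 3 for 11, while PBS replicates 1 and 6 and ghrelin replicates 2 and 5 did so for 2 each. These high and low livers were found in both groups. Dnajb4 is one of the 13, and it lay above the mean of all livers in every PBS liver and below it in every ghrelin liver. Among the PBS livers Dnajb4 was lowest in replicate 3, at 35.8 CPM.

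Over the 12 livers, log2 CPM of Hsph1 was compared with that of each of the other 12 stress-inducible members (permutation tests, two-sided, adjusted over these 12 relations), and 3 relations passed. Hspa8 followed Hsph1 most closely, with Pearson's r = 0.92 (permutation p = 8e-05, adjusted 0.00096) and Spearman's rho = 0.91 (permutation p = 0.00022, adjusted 0.00264). Its r was 0.89 without the 2 livers farthest from the Hsph1 median (PBS replicate 2 and ghrelin replicate 3), 0.92 in PBS alone (exact permutation p = 0.025, adjusted 0.06) and 0.91 in ghrelin alone (exact permutation p = 0.0194, adjusted 0.0583). Dnaja1 gave r = 0.83 (permutation p = 0.0024, adjusted 0.0144) and rho = 0.87 (permutation p = 0.00056, adjusted 0.00336). For Dnaja1 r was 0.82 without those 2 livers, 0.87 in PBS (exact permutation p = 0.0694, adjusted 0.139) and 0.96 in ghrelin (exact permutation p = 0.00833, adjusted 0.0333). Hsp90aa1 gave r = 0.74 (permutation p = 0.00678, adjusted 0.0271) and rho = 0.83 (permutation p = 0.00146, adjusted 0.00584), with r = 0.74 without the 2 livers, 0.95 in PBS (exact permutation p = 0.0111, adjusted 0.0444) and 0.82 in ghrelin (exact permutation p = 0.0389, adjusted 0.0933). These genes were high and low in much the same livers within either group. All values of a liver share 1 library, its depth and its scaling.

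The relation of Dnajb4 to Hsph1 over the 12 livers did not pass (r = 0.05, rho = -0.035, permutation p = 0.882 for r, adjusted 0.882). In PBS alone its r was -0.69 (exact permutation p = 0.136, adjusted 0.204) and in ghrelin alone 0.77 (exact permutation p = 0.0528, adjusted 0.106), and the difference between these was not tested. Dnajb1 followed Hsph1 in PBS (r = 0.98, exact permutation p = 0.00833, adjusted 0.0444), with r = 0.12 in ghrelin (exact permutation p = 0.836, adjusted 0.912), and over all livers it gave r = 0.60 (permutation, adjusted 0.0762). The remaining 7 members had r of 0.24 (Hspa1a) to 0.64 (Hspa4l) over the 12 livers and missed the adjusted threshold there. Within one group 3 of them passed, Hspa4l in PBS (r = 0.98, exact permutation p = 0.00833, adjusted 0.0444) and Hspd1 and Hspe1 in ghrelin (r = 0.90 and 0.92, exact permutation p = 0.00833 and adjusted 0.0333 for each). In the other group r was 0.60 for Hspa4l, 0.28 for Hspd1 and 0.27 for Hspe1, and these differences between groups were not tested. With library totals in place of TMM factors 7 relations passed instead of 3.

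**Figure D4:**
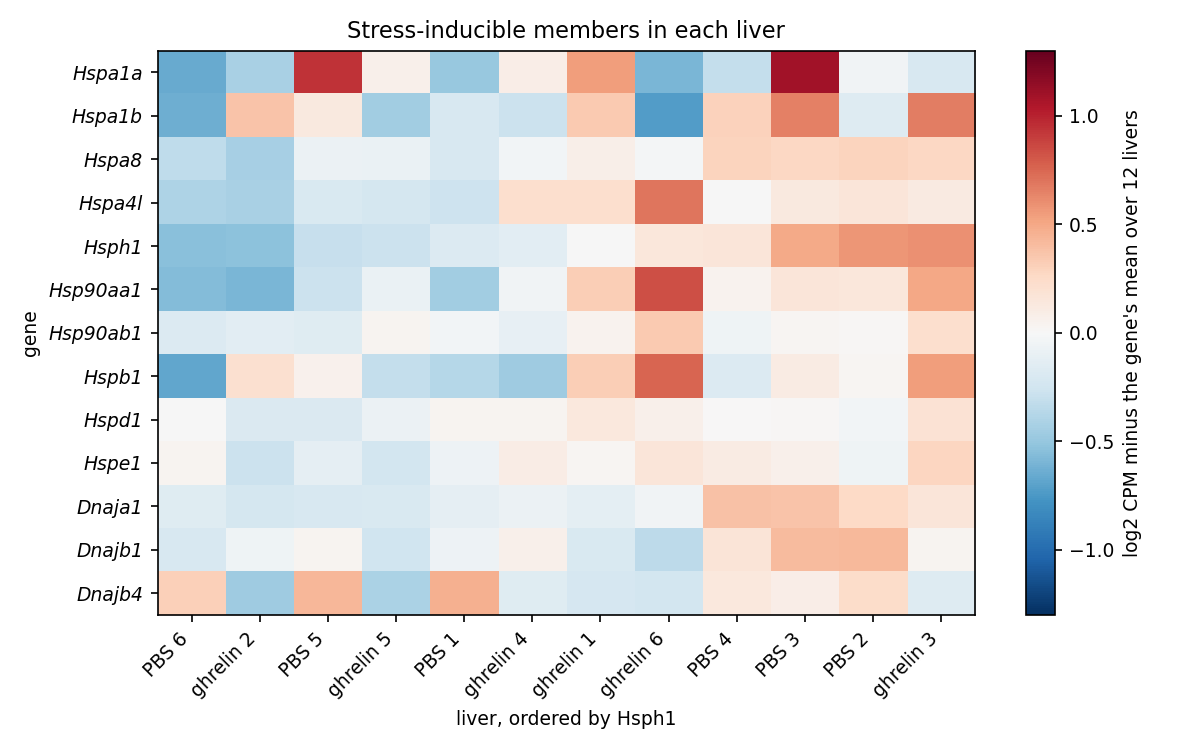
Heat map of log2 CPM minus the gene's mean over 12 livers, with stress-inducible members as rows and livers as columns, ordered by Hsph1. PBS replicate 3 lies above the mean for all 13 members, and the low and high ends of the Hsph1 order hold livers of both groups. Dnajb4 lies above its mean in every PBS liver and below it in every ghrelin liver, and PBS replicate 3 is its lowest PBS liver.

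Genes around the members were taken from 7 lists, 76 of them measured. None passed the adjusted threshold by edgeR, DESeq2 or limma voom, and 15 (19.7%) had an unadjusted edgeR p under 0.05, against 13.4% of all genes. Of these 12 were higher (15.8%, against 6.44% of all genes) and 3 lower (3.95%, against 6.94%). Of the heat shock factors and their regulators 4 of 6 were measured, all with positive fold changes (median 0.12). Their median fell to 0.087 with GC and length trends removed and to 0.086 with the replicate block in addition. Hsf1, the master factor, had a log2 fold change of 0.11 (SE 0.09, edgeR adjusted p = 0.631), Hsbp1, which binds HSF1, 0.11 (SE 0.05), and Hsf4 0.17 (SE 0.11). Of the 14 nucleotide exchange and binding factors of Hsp70 8 were positive (median 0.01). Bag3, itself an HSF1 target, had a log2 fold change of -0.25 (SE 0.16, edgeR adjusted p = 0.518). In the ER branch of that list the values were 0.49 (SE 0.21, edgeR adjusted p = 0.324) for Hyou1 and 0.15 (SE 0.07, edgeR adjusted p = 0.35) for Sil1.

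Of the 20 Hsp90 co-chaperones 9 had positive and 11 negative fold changes (median -0.02). Stip1, which joins Hsp70 to Hsp90, had a log2 fold change of 0.13 (SE 0.09, edgeR adjusted p = 0.574), Fkbp4, an immunophilin of steroid receptor complexes, 0.27 (SE 0.10, edgeR adjusted p = 0.261), and Cdc37l1 -0.17 (SE 0.06, edgeR adjusted p = 0.279). The cytosolic chaperonin TRiC had 5 positive and 3 negative fold changes over its 8 subunits (median 0.02), with Cct3 at 0.16 (SE 0.06) and Cct5 at 0.05 (SE 0.06). Prefoldin, which feeds it, had 1 positive and 4 negative (median -0.02), with Vbp1 at -0.26 (SE 0.09, edgeR adjusted p = 0.262) and Pfdn2 at -0.05 (SE 0.06).

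The 11 mitochondrial chaperones and proteases outside the members had a median log2 fold change of 0.02, with Clpb, a disaggregase, at 0.13 (SE 0.05) and Clpx at 0.35 (SE 0.19). The 14 ER chaperones and stress genes outside the members had the highest median of the 7 lists, 0.24, with 11 positive and 3 negative and 5 (35.7%) at an unadjusted p under 0.05, all higher. Over all genes 7087 of 14170 were positive and 6.44% were higher at that p. The ghrelin and PBS values overlapped for all 14 genes of the list, and whether these genes rise in the same livers was not tested. For Creld2 the range was 14.6 to 34.5 CPM in PBS and 20.7 to 112 CPM in ghrelin livers. Creld2 had a log2 fold change of 1.04 (SE 0.34, edgeR adjusted p = 0.229) and Sdf2l1, which assists Hspa5, 0.59 (SE 0.21, edgeR adjusted p = 0.262). Of the 8 ER members 6 had values on the same side of 0, Dnajb11 and Dnajc3 among them, and Dnajb9 and Dnajb14 on the other (median 0.05). None of these genes passed the adjusted threshold.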

How the data were processed

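Total RNA-seq libraries were aligned with STAR 2.4.0i to mm10, per the submitters' processing notes. The deposited table holds exonic read counts per gene, as whole numbers made by the authors. No source used here names the counting tool, its strand setting or its use of reads with several matches, so reads of overlapping genes or near-identical copies may be divided arbitrarily. From the counts, genes were filtered by filterByExpr of edgeR 4.0.16 (minimum count 10), scaled by TMM and tested with glmQLFit and glmQLFTest on group alone over all 12 libraries, with Benjamini-Hochberg adjustment over 14170 genes. Log2 CPM for correlations used a prior count of 2. Other settings, DESeq2 1.42.0, limma 3.58.1 and leaving out each library are given in the closing section. The fit was tested on simulated data. Libraries of one group differed by more than sampling noise, so each was kept. The members, gene lists and tests were chosen with earlier results of these data known. Members with values per group are those called, the 12 with the smallest p, the 10 highest per kilobase and a preset list. In each pathway list the 2 genes with the smallest p, Hsf1, Bag3, Stip1 and Hspa5 were named. Promoter sequences are from RefSeq (GRCm38.p6) and gene models from GENCODE M21.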

Additional observations from a re-analysis of the deposited data

Results flagged for a closer look

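The 27 members described with values per group were examined in each group for a liver far from the other 5, and 2 of 54 groups held one, where chance gives about 1 in 20. Dnajc12 stood at 14.7 CPM in PBS replicate 4, and at 5.87 to 8.04 CPM in the other 5 PBS livers. Hspd1 stood at 309 CPM in PBS replicate 5, and at 344 to 360 CPM in the other 5 PBS livers.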

How the results depend on the processing

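The count of 1 member lower became 0 with GC and length trends removed, 0 with the replicate block and those trends, and 0 to 1 when single libraries were left out. No member was higher in any of the 24 alternatives, and 37 of 59 members kept their sign in every alternative that gave a value (22 for Hspa1a, 24 for each other member). The 15 calls among all genes became 63 without a filter, 9 with robust estimation, 210 with DESeq2 and its own filter (27410 genes entered), 58 with the replicate block, 27 with the block and trends removed, and 0 to 32 when a library was left out. Same-numbered libraries deviated together only weakly (r of -0.08 to 0.27) and both libraries of a number correlated best with each other in 1 of 6 pairs, so the numbers were not taken to pair animals. With the block Dnajb4 kept its call (edgeR adjusted p = 0.0315). Library totals gave 7 relations to Hsph1. Log2 fold changes near 0 changed sign. With trends removed, without and with the block, Dnaja2 had 0.0082 and 0.0051 and Dnajc22 -0.021 and -0.020. Dnajc12 had 0.011 with upper quartile scaling, 0.059 with voom, 0.0048 with counts thinned to the lowest total, 0.038 with trends removed, 0.025 with the block and 0.064 with both. Hspa1b had 0.013 with upper quartile scaling, 0.00069 with totals, 0.00038 with the CPM filter and 0.060 thinned. Leaving out single libraries gave log2 fold changes of -0.23 to 0.045 for Hsph1, -0.12 to 0.23 for Dnajc12, -0.030 to 0.080 for Hspe1 and -0.16 to 0.16 for Hspa1b. None of these members was called under any setting, and the cause of the shifts was not tested. The lowest members rest on few counts, 186 in all for Hspa1a.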
